A study of Mus musculus with 7 samples.

Results

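The carboxylesterase genes of mouse liver were followed through 7 single-cell RNA libraries. The 10 genes were Ces1b, Ces1c, Ces1d, Ces1e, Ces1f, Ces1g, Ces2a, Ces2e, Ces3a and Ces3b, out of 19 carboxylesterase genes and 32285 genes listed in each matrix. They were chosen by name, from earlier results of these same data that compared tumor with healthy libraries, so that their being lower in the tumor libraries is the reason they were chosen and not a finding. All 10 had UMIs in hepatocyte-lineage-like cells and reached 10 UMIs per 1000000 UMIs of the same cells (counts per 1000000, CPM) in at least 1 library, and 8 reached 100 CPM.

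Carboxylesterases are serine hydrolases that cleave ester bonds in drugs, pesticides and stored lipids. In hepatocytes most of them sit inside the endoplasmic reticulum, held there by a short signal at the end of the protein, where enzymes of the Ces1 family take part in the turnover of triglyceride and cholesteryl ester and in the loading of very low density lipoprotein (VLDL). Ces1c is the exception known for leaving the cell: rodents secrete it into plasma, where it accounts for much of the esterase activity that breaks down ester prodrugs.

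Each library came from mouse liver cells captured with droplet 3′ chemistry that tags each RNA molecule with a unique molecular identifier (UMI). The labels describe all 7 libraries alike, as liver of a murine hepatoblastoma model, so the libraries were not pooled into groups, no group mean was formed and no test was run. In the text of the study, NEJ634, NEJ687, NEJ709 and NEJ723 are tumors of C57BL/6J ABC-Myc mice, which carry Alb-Cre and the CAG-MYC allele. In these animals albumin-driven Cre removes a stop cassette in hepatocytes and so turns on human MYC. NEJ638, NEJ654 and NEJ677 are by elimination the healthy control mice, and the study's controls were littermates that lacked Alb-Cre, the CAG-MYC allele or both. Mouse ages and the exact control genotype of each library were not given in the sources used here, and the free-text label of NEJ709 also carries the name NEJ634. The libraries held between 40214395 and 132485391 UMIs, and 72669 cells were analysed, 6716 to 16962 per library, with median depths of 2106.5 to 4628.0 UMIs per cell. The barcodes that a library shared with another made up 1.49% to 4.12% of its cells. Xist stood at 10463 UMIs or more in NEJ634, NEJ638 and NEJ654 and at 5 or fewer in the other libraries, where the Y-linked Ddx3y had 1625 to 3405 UMIs. Sex therefore differed among the libraries and was not tested as a source of any difference.

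The family lies on chromosome 8 in GRCm38 (GENCODE M21). The 6 Ces1 members are neighbors on the minus strand in a 281 kb stretch, chr8:93056728-93337308, with no other protein-coding gene inside. The Ces2 and Ces3 members lie on the plus strand in a 360 kb stretch, chr8:104734003-105093929, among 9 protein-coding genes that are all carboxylesterases. Coding sequences were 71.9% to 88.8% identical between pairs of Ces1 members, 83.2% between Ces2a and Ces2e and 95.3% between Ces3a and Ces3b, against 54.6% to 58.5% between the subfamilies. The 3′ ends, where these libraries read, were more distinct. Of 410 windows of 91 bases in the last 500 bases of each transcript set, Ces3a shared 10.5% with Ces3b, Ces1b and Ces1c shared 6.83% with each other, and the other members shared none. A small part of the reads from these 3′ ends of those pairs could thus belong to either gene. Reads from introns, which the study states were counted, and from elsewhere in the transcripts were not covered by these windows.

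The ends of the coding sequences are shown because the signal that keeps most of these enzymes in the cell is encoded there. Each is the last 30 coding bases in GENCODE M21, sense strand, with the last 4 codons before the stop in capitals.
Ces1b: gaccctactgagcacAGAGAACACAAAtga
Ces1c: gaccctactgaacacACAGAACACAAAtga
Ces1d: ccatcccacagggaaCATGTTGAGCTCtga
Ces1e: caactgccgacagaaCACACTGAGCTGtga
Ces1f: caaccccagccatacCACAATGAGCTGtga
Ces1g: tcatcccatagggaaCATGTTGAACTGtga
Ces2a: ggttctcaggacaagCATGCAGAGCTGtag
Ces2e: gggtctcaggagaggCACAAAGAGTTGtag
Ces3a: agaagcaggaaagttCCAGAGGAGCTCtga
Ces3b: agaagcaggaaagttCCAGAGGAGCTCtga
Ces1b and its neighbor Ces1c end in near-identical codons, and Ces3a and Ces3b end in the same 30 bases.

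Hepatocyte-lineage-like cells were the cells of clusters named by 16 markers such as Alb, Apoa1 and Ttr, with the carboxylesterase genes kept out of the clustering. There were 4140 in NEJ634, 318 in NEJ638, 287 in NEJ654, 143 in NEJ677 and 240 in NEJ687. NEJ709 and NEJ723 held only 8 each and are given apart. The cells of NEJ634 also held 2762 CPM of neutrophil markers, against 231 CPM in NEJ687 and 72.1, 23.8 and 5.51 CPM in NEJ638, NEJ654 and NEJ677. Free RNA of NEJ634 held 20343 CPM of them. With each library clustered on its own, NEJ634 had 52 hepatocyte-lineage-like cells. The cells fell into different clusters by library. Clusters 3, 18 and 44 held most of them in NEJ634 and NEJ687, and cluster 28 all of them in NEJ638, NEJ654 and NEJ677. This is after a requirement, chosen after seeing the data, that the cells hold 2 times the markers of their library's free RNA. The requirement left out 18, 229 and 787 cells of cluster 24 in NEJ638, NEJ654 and NEJ677. It kept 30 in NEJ687, where free RNA held 9387 CPM of the markers against 22495, 33235 and 30608 CPM. The state of the cells differed with the cluster. Afp, the fetal counterpart of albumin, stood at 2299 CPM in NEJ634 and 1544 CPM in NEJ687, against 9.16, 1.36 and 2.36 CPM in NEJ638, NEJ654 and NEJ677, and Alb ran the other way, at 4152 and 3153 CPM against 41133, 71595 and 65942 CPM.

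Summed over the 10 genes, the level was 179 CPM in NEJ634 (exact 95% Poisson interval 173 to 185, counting error only) and 200 CPM in NEJ687 (187 to 214). It was 2931 CPM in NEJ638 (2866 to 2997), 3065 CPM in NEJ654 (2976 to 3156) and 3959 CPM in NEJ677 (3850 to 4070). The 5 libraries thus formed a low pair and a high trio that did not overlap, 22.1-fold apart at the extremes, while within the trio NEJ638 and NEJ654 did not differ beyond their intervals. The size of that gap depends on which cells are counted. Without the requirement, chosen after seeing the data, that the cells hold 2 times the markers of free RNA, NEJ677 had 1584 CPM and became the lowest of the trio, and cells chosen by at least 5% of UMIs from the 16 markers gave 400 CPM in NEJ634 and 371 CPM in NEJ687. For scale, the range of Alb over the same libraries was 22.7-fold. The few such cells of NEJ709 gave 168 CPM (131 to 212, 72 UMIs) and those of NEJ723 164 CPM (97.3 to 259, 18 UMIs). With each library clustered on its own, NEJ709 had 34 such cells at 69.8 CPM. With 1 library per mouse and no groups in the labels, the intervals say nothing of the spread between mice.

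**Figure D1:**
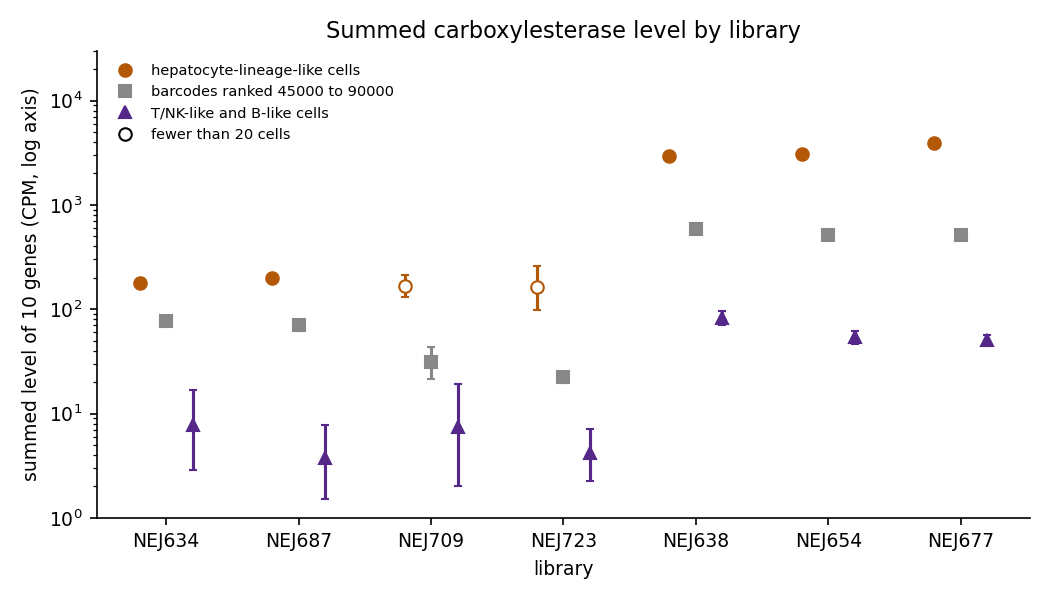
Summed level of the 10 carboxylesterase genes by library, in CPM on a log axis, with exact 95% Poisson intervals. Circles are hepatocyte-lineage-like cells (open where fewer than 20 cells), squares the barcodes ranked 45000 to 90000 by UMIs, and triangles pooled T/NK-like and B-like cells; the circles of NEJ638, NEJ654 and NEJ677 lie between 2931 and 3959 CPM and those of the other libraries between 164 and 200 CPM.

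UMIs of these genes were also found outside the hepatocyte lineage. Lymphoid cells (T/NK-like and B-like), not known as a source of these enzymes, held summed levels of 7.76 CPM in NEJ634, 3.73 CPM in NEJ687, 82.8 CPM in NEJ638, 53.7 CPM in NEJ654 and 50.4 CPM in NEJ677. All 10 genes lay above that background beyond both intervals in NEJ638, NEJ654 and NEJ677, as did 37.3%, 31.5% and 30.5% of all 9169 genes that reached 10 CPM. In NEJ634 4 of the 10 did (33.0% of all), and in NEJ687 5 of the 10, another 3 having no UMI there (37.8% of all). The lymphoid cells of NEJ634 numbered only 144, where 0 UMIs allow up to 4.77 CPM (upper end of the interval), so Ces1b, Ces1f, Ces2e, Ces3a and Ces3b could not pass at their levels in that library. Ces1c, Ces1e, Ces1g and Ces2a lay above it in each of these 5 libraries. By the rule that a gene lies above it in each of the 5 in which it had a UMI, that makes 4 of 10 members, where 17.4% of those 9169 genes did so. In the 8 cells of NEJ709 the intervals of Ces1e and Ces1g overlapped that background. Among the alternative settings, Ces1c kept this place in each that gave a count, but the set around it changed: it was Ces1c, Ces2a and Ces3b with the 99th percentile rule for cells alone, and Ces1c, Ces1f, Ces3a and Ces3b with each library clustered on its own. The low levels of the remaining genes in NEJ634 and NEJ687 were therefore not separable from that background at this depth in at least 1 of these libraries.

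All 10 genes had NEJ634 and NEJ687 as their lowest libraries, as did 22.9% of all genes that reached 10 CPM. That order is what the genes were chosen for, and nothing further is read from it. The size of the range, in contrast, varied among the members from 6.08-fold to 4678-fold. Of the 10 genes, 4 spanned 100-fold or more between their highest and lowest library, and of all 2144 genes that reached 100 CPM 3.78% did (1.59% of the 9169 that reached 10 CPM); the range too comes from the contrast that chose the genes and is a description. With cells chosen by at least 5% of UMIs from the 16 markers, only 2 members, Ces1f and Ces3a, spanned 100-fold. Ces1d lay just past that limit, at 102-fold (66.7 to 163; 62.2-fold without NEJ687 and 97.2-fold without NEJ654), and Ces1g just short of it, at 69.6-fold (43.7 to 118; 37.0-fold without NEJ687).

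**Figure D2:**
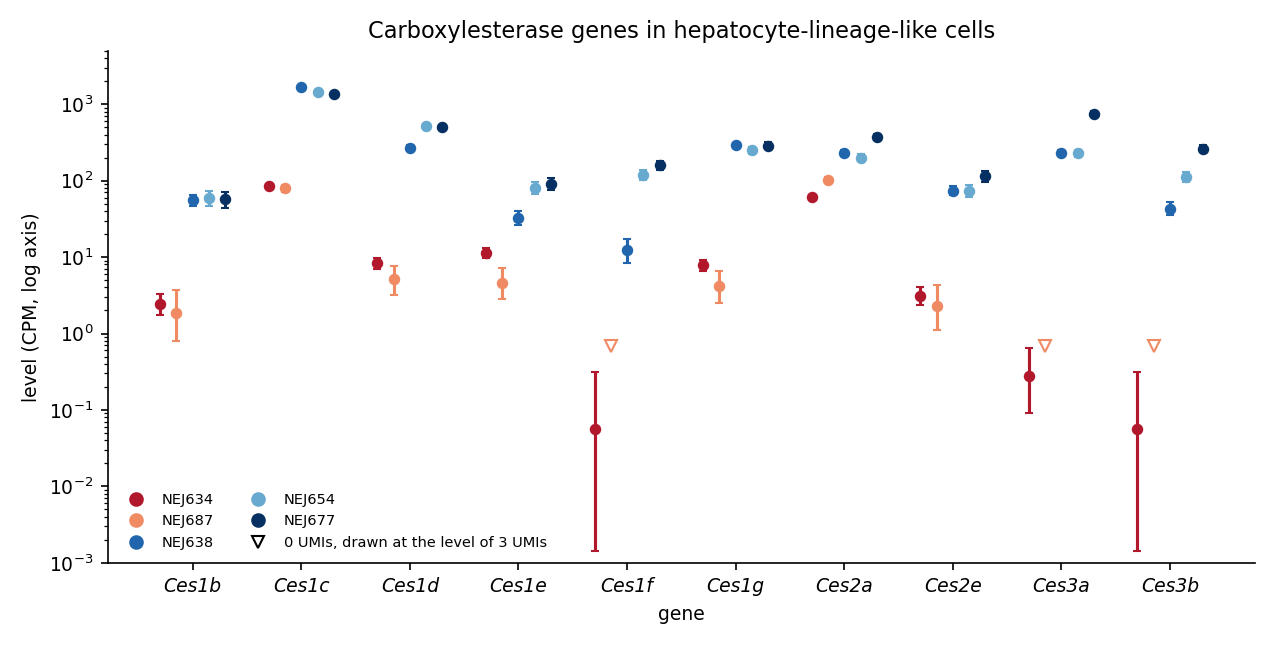
Level of each gene in hepatocyte-lineage-like cells of 5 libraries, in CPM on a log axis, with exact 95% Poisson intervals; open triangles stand for 0 UMIs and are drawn at the level that 3 UMIs would give. NEJ634 and NEJ687 (red and orange) lie below the other 3 libraries (blue) for every gene; the highest and lowest library are nearest for Ces2a and farthest apart for Ces1f, Ces3a and Ces3b.

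Among the Ces1 genes, Ces1c (ENSMUSG00000057400, chr8:93099015-93131283), the secreted plasma esterase, was the most abundant in each of the 5 libraries. It stood at 83.8 CPM in NEJ634, 79.8 CPM in NEJ687, 1694 CPM in NEJ638, 1424 CPM in NEJ654 and 1365 CPM in NEJ677. NEJ634 and NEJ687 did not differ beyond their intervals, nor did NEJ654 and NEJ677, and NEJ638 lay above both of the latter. The range was 21.2-fold (19.0 to 23.8). Ces1b (ENSMUSG00000078964, chr8:93056728-93080017), whose coding end resembles that of Ces1c, was far less abundant, at 2.41, 1.86, 55.0, 58.4 and 56.7 CPM in the same order of libraries. Its 3 higher libraries lay within each other's intervals.

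Ces1d (ENSMUSG00000056973, chr8:93166068-93197838), is a triglyceride hydrolase that feeds lipid into VLDL. Its level was 8.35 CPM in NEJ634, 5.10 CPM in NEJ687, 268 CPM in NEJ638, 519 CPM in NEJ654 and 496 CPM in NEJ677. NEJ638 lay below NEJ654 and NEJ677, whose intervals overlapped, by more than the intervals. This order holds for the cells kept by the free-RNA requirement. The 787 cells of cluster 24 in NEJ677 that it left out had 18.7 CPM of Ces1d, so the place of NEJ677 depends on that choice. The order of other genes within the trio can turn on it too. Ces1g (ENSMUSG00000057074, chr8:93302369-93337308), a lipid esterase studied for its restraint of VLDL output, did not share that dip, at 291 CPM in NEJ638, 250 CPM in NEJ654 and 287 CPM in NEJ677, with 7.84 CPM in NEJ634 and 4.17 CPM in NEJ687.

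Ces1f and Ces1e separated NEJ638 further. Ces1f (ENSMUSG00000031725, chr8:93256236-93279747), an esterase that, like Ces1d, acts on triglyceride, had 12.2 CPM in NEJ638 (8.36 to 17.2) against 119 CPM in NEJ654 (102 to 138) and 159 CPM in NEJ677 (138 to 182). It was found as 1 UMI in NEJ634 (0.0560 CPM) and as 0 UMIs in NEJ687, where 3 UMIs would be 0.696 CPM. Its range of 2838-fold (504 to 112633) rests on that single UMI and becomes at least 229-fold without NEJ634. Ces1e (ENSMUSG00000061959, chr8:93201218-93229619), the esterase that anchors beta-glucuronidase in the endoplasmic reticulum, had 32.8 CPM in NEJ638, 80.2 CPM in NEJ654 and 90.5 CPM in NEJ677. It also differed between the low libraries, with 11.3 CPM in NEJ634 and 4.64 CPM in NEJ687, beyond the intervals. Free RNA differed the same way, with 7.25 CPM (6.25 to 8.37) of Ces1e in NEJ634 and 1.74 CPM (0.639 to 3.79) in NEJ687. The part of free RNA in the difference between the cells was not tested.

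The Ces2 genes encode enzymes that prefer esters with a small acyl and a large alcohol group, such as several prodrugs. Ces2a (ENSMUSG00000055730, chr8:104734003-104741634) had the narrowest range of the family. It stood at 61.6 CPM in NEJ634 (58.0 to 65.4) and 102 CPM in NEJ687 (93.0 to 112), against 229 CPM in NEJ638, 200 CPM in NEJ654 and 375 CPM in NEJ677. That is a range of 6.08-fold (5.45 to 6.78), or 3.66-fold without NEJ634 and 3.72-fold without NEJ677, where Ces2e (ENSMUSG00000031886, chr8:104926260-104934672) spanned 49.2-fold (26.0 to 105; 31.9-fold without NEJ677). Ces2e had 3.14, 2.32, 74.1, 73.4 and 114 CPM in NEJ634, NEJ687, NEJ638, NEJ654 and NEJ677. The intervals of the 2 ranges did not overlap although the genes share most of their coding sequence.

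The Ces3 genes, which are expressed mainly in liver, were, like Ces1f, close to absent in the low libraries. Ces3a (ENSMUSG00000069922, chr8:105048601-105058413) had 232 CPM in NEJ638, 228 CPM in NEJ654 and 755 CPM in NEJ677, but 5 UMIs (0.280 CPM) in NEJ634 and none in NEJ687. Ces3b (ENSMUSG00000062181, chr8:105083753-105093929) had 43.1, 113 and 262 CPM in NEJ638, NEJ654 and NEJ677, 1 UMI in NEJ634 and none in NEJ687. Both were highest in NEJ677 beyond the intervals, the library of the trio that held Y-linked RNA, and the part of sex in this was not tested. The ranges were 2694-fold (1151 to 8317) for Ces3a and 4678-fold (834 to 185322) for Ces3b, the latter again against 1 UMI. NEJ687 had the lowest levels, at 0 UMIs, but 0 UMIs are set higher in ratios, so the ranges were taken against NEJ634. The levels of NEJ634 lay within the intervals of that library's free RNA. That free RNA held 0.234 CPM (0.0858 to 0.509) of Ces3a and 0.117 CPM (0.0241 to 0.342) of Ces3b. Without NEJ634 the ranges are taken against NEJ687, at 0 UMIs, and become at least 1085-fold for Ces3a and at least 377-fold for Ces3b. Without NEJ677 they are 828-fold for Ces3a and 2013-fold for Ces3b. The 8 cells each of NEJ709 and NEJ723 added 1 UMI of Ces3a and none of Ces3b.

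The unequal ranges changed the make-up of the family. Ces1c took 46.9% of the family's UMIs in NEJ634, 39.9% in NEJ687, 57.8% in NEJ638, 46.5% in NEJ654 and 34.5% in NEJ677, and so did not separate the libraries. Ces2a took 34.5% in NEJ634 and 51.1% in NEJ687, against 7.83%, 6.54% and 9.46% in NEJ638, NEJ654 and NEJ677. Ces3a ran the other way, at 0.157% and 0% against 7.92%, 7.42% and 19.1%. In the few cells of NEJ709 and NEJ723, Ces1c and Ces2a again made up most of the UMIs, with 35 and 28 of 72 and with 11 and 6 of 18.

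**Figure D3:**
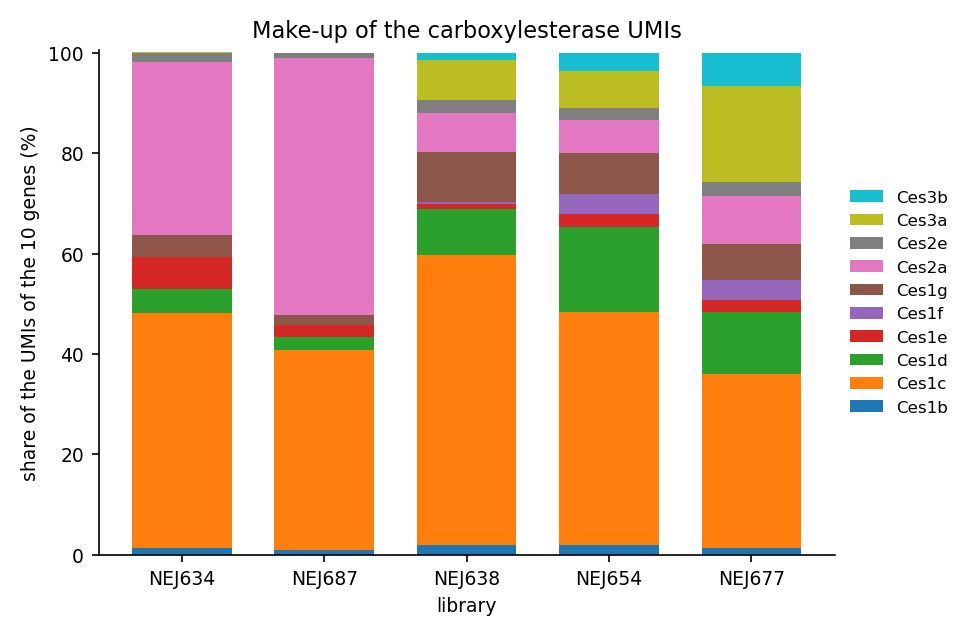
Share of each gene in the UMIs of the 10 carboxylesterase genes, in percent, in hepatocyte-lineage-like cells of 5 libraries; each bar sums to 100%. Ces2a takes 34.5% and 51.1% in NEJ634 and NEJ687 and 6.54% to 9.46% in the other libraries, while Ces3a and Ces3b are visible only in the latter.

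CPM values depend on what else the cells make, so the genes were also set against the 16 hepatocyte markers. Those markers themselves held 27945 CPM in NEJ634 and 34906 CPM in NEJ687, against 111990, 170811 and 169652 CPM in NEJ638, NEJ654 and NEJ677. Per 10000 marker UMIs the family had 64.0 UMIs in NEJ634, 57.3 in NEJ687, 262 in NEJ638, 179 in NEJ654 and 233 in NEJ677, so the gap between the low pair and the trio was smaller than in CPM but remained. For Ces2a it closed. That gene had 22.1 UMIs per 10000 marker UMIs in NEJ634, 29.3 in NEJ687, 20.5 in NEJ638, 11.7 in NEJ654 and 22.1 in NEJ677, so that relative to the markers it was lowest in NEJ654. Ces1e lost the order as well, with 4.05 (3.51 to 4.65) in NEJ634 against 2.93 (2.34 to 3.62) in NEJ638, 4.69 in NEJ654 and 5.34 in NEJ677, while NEJ687 stayed lowest at 1.33. Ces3a, at 0.100 and 0 against 20.7, 13.3 and 44.5, kept its order on this scale.

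At the level of single cells, depth has to be held equal first. After thinning each cell to 500 UMIs, at least 1 UMI of the family was found in 7.08% of the cells of NEJ634, 10.4% in NEJ687, 74.2% in NEJ638, 66.2% in NEJ654 and 80.4% in NEJ677. Unthinned cells, whose depths had medians of 2743, 14876, 8706, 2575 and 7582 UMIs, gave 36.7%, 66.2%, 97.8%, 88.9% and 98.6%. T/NK-like and B-like cells, thinned alike, gave 0.694%, 0.222%, 4.35%, 2.97% and 2.83%. Without thinning, and so at those unequal depths, a cell of NEJ677 held a median of 7 of the 10 genes, one of NEJ638 6, one of NEJ654 4, one of NEJ687 1 and one of NEJ634 0. Unthinned cells with all 10 were found only in the trio: 3 in NEJ638, 10 in NEJ654 and 14 in NEJ677.

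Within NEJ634 the level was not uniform. Cluster 44, with 141 cells led by Hamp2, Cyp2c29, Cyp2c37 and the bile acid enzyme Cyp7a1, had a summed level of 509 CPM (457 to 565). Clusters 3 (2735 cells) and 18 (1260 cells) had 153 and 174 CPM. Ces1c stood at 280 CPM and Ces1d at 50.4 CPM in cluster 44, between the 2 sets of libraries, and Afp remained at 1340 CPM. Ces1f, Ces3a and Ces3b had no UMI there. In this cluster 0 UMIs allow up to 5.32 CPM, so a rise of these genes from their levels in NEJ634 could have gone unseen. Clusters were built from these same cells, so this is a description of them and no test.

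Along the liver lobule, hepatocytes near the central vein and near the portal vein carry different enzymes. The cells of cluster 28 were ordered in each library by their UMIs of a pericentral list (such as Cyp2e1 and Cyp1a2) against a periportal list (such as Cyp2f2 and Hal), neither of which holds a carboxylesterase, and split into 3 parts of about equal cell number. The family's summed level rose toward the pericentral part, from 2384 to 3444 CPM in NEJ638, from 2452 to 3940 CPM in NEJ654 and from 3420 to 4847 CPM in NEJ677, with no overlap of intervals. Ces1c was 1.62, 1.49 and 1.56 times and Ces1d 2.13, 2.47 and 2.08 times as high in the pericentral as in the periportal part of NEJ638, NEJ654 and NEJ677, each beyond the intervals. Ces1g was higher in the pericentral part beyond the intervals in NEJ638 (1.44) and NEJ677 (2.50) but not in NEJ654 (1.26). Ces1b (2.26) and Ces1f (2.58) were so only in NEJ654, and Ces2e (3.11) only in NEJ677. The intervals cover counting error only. The share of all genes beyond them was not computed.

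Ces3b had the opposite slope. It fell from 84.7 CPM (65.1 to 108) in the periportal part to 13.4 CPM (7.13 to 22.9) in the pericentral part of NEJ638, and from 395 CPM (342 to 454) to 106 CPM (74.0 to 146) in NEJ677. In NEJ654 the levels were 137 CPM (106 to 175) and 81.5 CPM (58.5 to 111), with overlapping intervals. Its near-identical neighbor Ces3a did not follow, with pericentral to periportal ratios of 1.03, 2.23 and 1.20 in NEJ638, NEJ654 and NEJ677, of which only that of NEJ654 lay beyond the intervals. Ces2a (1.01, 1.20 and 1.36) and Ces1e (1.12, 1.47 and 1.35) showed no slope beyond the intervals in any of the 3 libraries. The order in NEJ634 and NEJ687 was not examined.

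**Figure D4:**
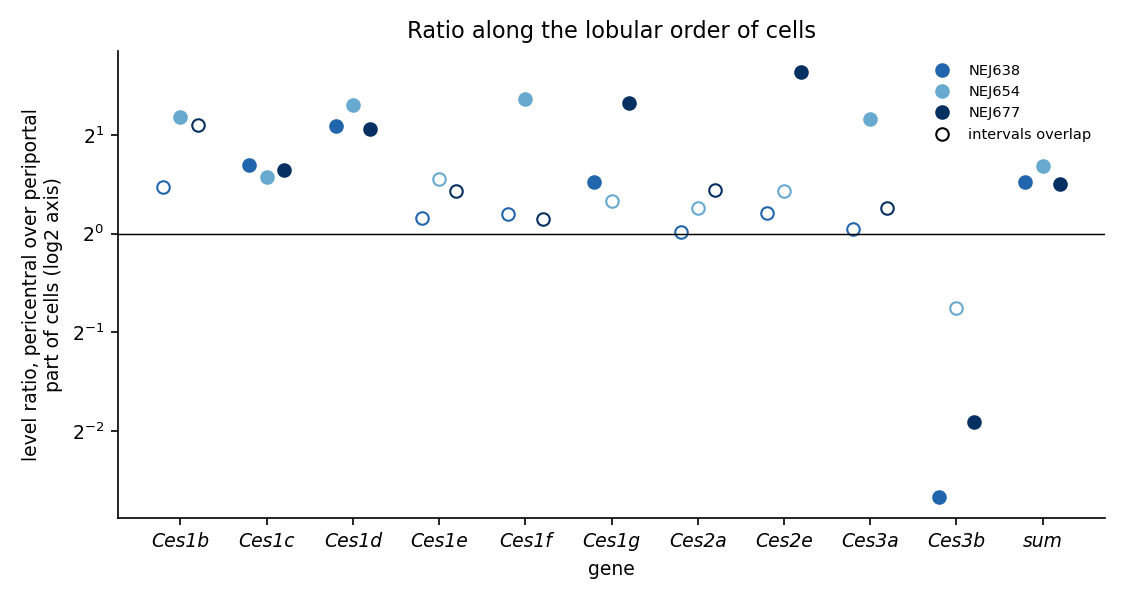
Ratio of the level in the pericentral part to that in the periportal part of cluster 28 cells, on a log2 axis, for each gene and their sum in NEJ638, NEJ654 and NEJ677. Filled circles mark pairs whose exact 95% Poisson intervals do not overlap; the line marks a ratio of 1. Ces1d lies at 2.08 to 2.47 and Ces3b at 0.158 to 0.594.

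In the other named classes the genes mostly did not exceed the level expected from free RNA, a comparison with the limits given below. The 24750 of 72669 cells in unnamed clusters, some of them led by Afp, were not examined for these genes. Unnamed cells made up 92.1% of NEJ709 and 41.7% of NEJ634, against 3.08% of NEJ687 and 4.61% of NEJ723. Those of NEJ709 were mostly cluster 0 (12837 cells), led by neutrophil genes such as Ltf and Camp. The unnamed clusters led by Afp were almost wholly of NEJ634, such as cluster 35 with 401 of 403 cells. Each class of at least 20 cells in a library was compared with 2 levels, in 75 pools per gene. One was that of the T/NK-like and B-like cells of the library. The other was the level expected from the free-RNA profile scaled by the hepatocyte markers of the class. The pools include the T/NK-like and the B-like cells themselves, which could hardly exceed a pool they are part of. The share of all genes that exceed both was not computed. Ces1b, Ces1e, Ces1f, Ces1g, Ces2a, Ces3a and Ces3b exceeded both in no pool. The markers stood at 167% of their free-RNA level in cholangiocyte-like cells of NEJ634 and at 137% in those of NEJ723. Where a class makes these markers itself, the expected level is set too high. A carboxylesterase gene made along with them could then go unseen. Ces2e did so in endothelial-like cells of NEJ638 (15.2 CPM, 12.2 to 18.6), NEJ654 (17.5 CPM, 14.1 to 21.3) and NEJ677 (138 UMIs, 16.8 to 23.6 CPM), where free RNA would give 1.23, 2.58 and 1.22 CPM. In endothelial-like cells of NEJ634, NEJ687 and NEJ723, Ces2e lay above the free-RNA level but not above the T/NK-like and B-like cells, with 2.25 CPM (1.08 to 4.14) against 0.648 CPM in NEJ634, 2.20 CPM (0.267 to 7.96, 2 UMIs) against 0.197 CPM in NEJ687 and 5.55 CPM (1.14 to 16.2, 3 UMIs) against 0.249 CPM in NEJ723. Ces1d stood at 342 CPM (273 to 423) and Ces1c at 374 CPM (302 to 459) in 21 cholangiocyte-like cells of NEJ677, with 38.5 and 95.1 CPM expected. In 12 and 13 such cells of NEJ638 and NEJ654, Ces1d had 345 and 354 CPM and Ces1c 280 CPM and 32.2 CPM, the latter from 2 UMIs and below the 49.3 CPM expected. Ces1c also exceeded both limits in conventional dendritic-like cells of NEJ634 (23.4 CPM, 13.4 to 38.1) and in endothelial-like cells of NEJ687 (13.2 CPM, 6.83 to 23.1), and Ces1d in mesenchymal-like cells of NEJ654 (45.0 CPM, from 5 UMIs). The 256 cholangiocyte-like cells of NEJ723 held 17.7 CPM (244 UMIs) of the whole family. They were of cluster 39, led by Cldn7, Cldn6 and Krt19, with the hepatocyte-lineage list next (mean log2 fold 2.01 against 5.22). The study proposes that the cluster dominating NEJ723, with raised Epcam and Krt19, holds tumor cells. Whether these 256 cells are among them was not tested.

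The other lists of ester and lipid metabolism had narrower median ranges than the 10 carboxylesterases. Those 10 were chosen for their contrast between these same libraries, so a wide range was built in and the difference is only a description. Of the other 9 carboxylesterase genes listed, 2 reached 10 CPM in hepatocyte-lineage-like cells: Ces2g, with 10.4, 3.94, 39.3, 25.8 and 34.6 CPM in NEJ634, NEJ687, NEJ638, NEJ654 and NEJ677, and Ces2c, with 24.4 CPM in NEJ677 and 6.11 CPM or less elsewhere. Of 13 other liver ester hydrolases, 12 reached 10 CPM, with a median range of 4.20-fold against 59.4-fold for the 10 carboxylesterases and 2.89-fold for all 9169 genes. The widest ranges among them were those of Pon1, the paraoxonase of high density lipoprotein, with 85.5-fold, and Bche, butyrylcholinesterase, with 28.5-fold. NEJ634 and NEJ687 were the lowest libraries for 9 of the 12, and for 22.9% of all 9169 genes.

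The 8 genes of triglyceride storage and VLDL secretion had a median range of 2.84-fold. NEJ634 and NEJ687 were the lowest libraries for 4 of them (22.9% of all 9169 genes). Apob, the structural protein of VLDL and the highest of the list, stood at 899, 645, 2103, 2067 and 3862 CPM in NEJ634, NEJ687, NEJ638, NEJ654 and NEJ677. Tm6sf2, which takes part in the lipid loading of VLDL, had the widest range of the list, 8.97-fold. The 11 liver regulators had a median range of 2.27-fold, with NEJ634 and NEJ687 lowest for 7 (again 22.9% of all genes). Cebpa, a factor of hepatocyte differentiation, reached the highest level, at 74.7, 97.9, 271, 168 and 226 CPM in the same order of libraries, and Foxa2, a pioneer factor of liver genes, had the widest range (5.12-fold), at 10.9, 10.4, 53.4, 48.9 and 33.1 CPM. The pericentral list had a median of 68.7-fold and the periportal list of 3.02-fold, although the latter held Cyp2f2 with 562-fold. Over 80 pools of 15 classes in 7 libraries, which share libraries and depth, 6217 genes were compared with the summed family by log2(CPM + 1). The closest were Mat1a (Pearson's r = 0.903), Alb (0.895), Hrg (0.886), Apoa5 (0.882) and Serpina1c (0.882). Alb is 1 of the 16 markers that named the hepatocyte-lineage-like cells, so its place is partly built in.

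**Figure D5:**
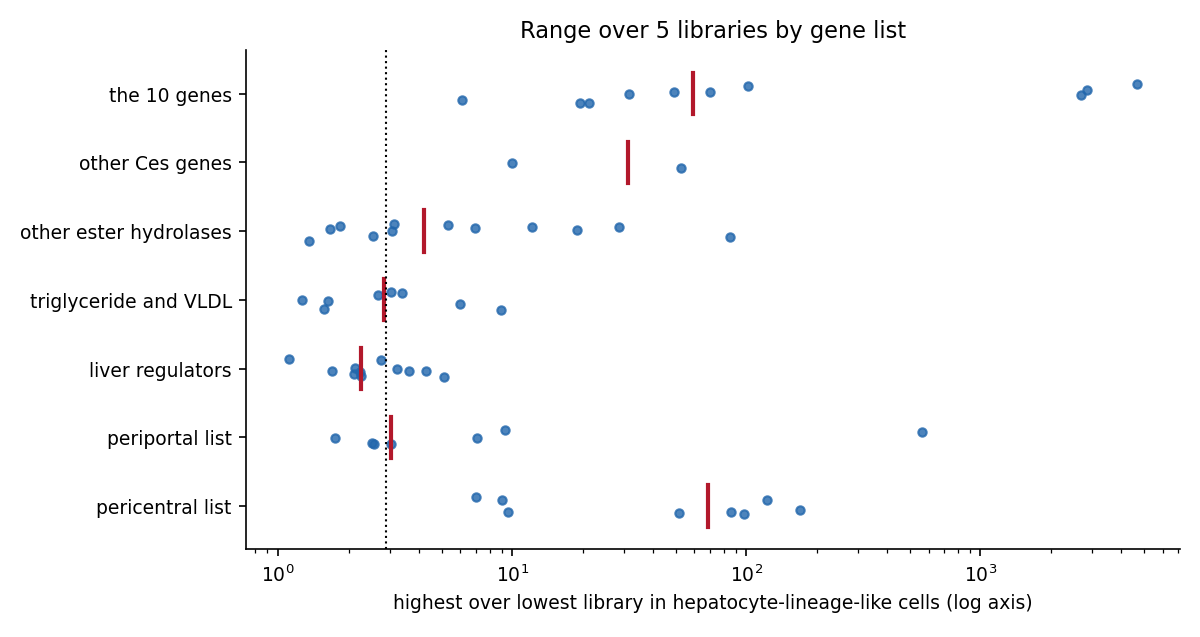
Highest over lowest library in hepatocyte-lineage-like cells of 5 libraries (log axis) for genes that reached 10 CPM, by gene list. Points are genes, red bars the median of a list and the dotted line the median of all 9169 genes, 2.89-fold. The 10 carboxylesterases have a median of 59.4-fold and the pericentral list of 68.7-fold. The 10 were chosen for their contrast between these libraries.

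The stretches before the transcription starts are shown for the most abundant Ces1 gene, the gene with the narrowest range (Ces2a) and Ces3b, 1 of the 3 genes with the widest ranges, whose intervals overlap. They are 250 bases upstream in GRCm38.p6 from RefSeq, on the sense strand, at chr8:93131284-93131533 (minus), chr8:104733753-104734002 (plus) and chr8:105083505-105083754 (plus). Capitals mark any match, on either strand, to the 6 motifs that are named after the sequences.
Ces1c: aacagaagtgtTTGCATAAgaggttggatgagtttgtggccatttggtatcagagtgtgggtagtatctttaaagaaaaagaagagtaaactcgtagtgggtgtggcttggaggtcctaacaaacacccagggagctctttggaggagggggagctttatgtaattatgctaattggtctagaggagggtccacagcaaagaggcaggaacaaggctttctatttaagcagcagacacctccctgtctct
Ces2a: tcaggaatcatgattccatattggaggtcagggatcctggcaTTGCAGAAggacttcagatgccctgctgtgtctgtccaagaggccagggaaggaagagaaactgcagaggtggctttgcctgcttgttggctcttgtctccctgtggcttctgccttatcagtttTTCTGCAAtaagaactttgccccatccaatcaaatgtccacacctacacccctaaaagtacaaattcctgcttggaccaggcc
Ces3b: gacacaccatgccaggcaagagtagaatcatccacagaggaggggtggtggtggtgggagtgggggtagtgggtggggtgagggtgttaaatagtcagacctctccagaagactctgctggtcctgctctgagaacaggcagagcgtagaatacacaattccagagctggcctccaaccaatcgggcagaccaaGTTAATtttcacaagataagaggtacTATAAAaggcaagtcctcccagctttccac
RefSeq windows were matched for 7 of the 10 genes (8 windows) and not for Ces1d, Ces1f and Ces3a. TTGCNNAA, the shape of a site for C/EBP factors, was found in 5 of the 8 windows, those of Ces1b, Ces1c, Ces2a and Ces2e, and in 9.57% of 32536 promoters. TATAAA was found upstream of Ces1g and Ces3b (12.3% of all) and GTTAAT, part of the known site of HNF1, upstream of Ces3b (6.47%). No window held the E-box CACGTG (6.04% of all), CAAAGTCCA (0.387%) or TGTTTAC (3.17%). The 2 windows of Ces1b overlap and share the bases around the TTGCNNAA match with Ces1c. Ces2a and Ces2e also resemble each other around their nearer match, so the 5 windows are not independent. A match is a run of letters, not a bound site.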

How the data were processed

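Single-cell 3′ RNA libraries of mouse liver (7 libraries, 40214395 to 132485391 UMIs each) were analysed. What the authors deposited are unnormalized UMI counts for every gene in every barcode, unfiltered for cells; they were made by Cell Ranger, which the submitters' processing notes give as 6.0 and the file headers as 4, and the genome build is not given in the sources used here. The study states that intronic reads were counted. The 10 genes and all gene lists were chosen with earlier results of these data known.

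Barcodes were called as cells by a rule based on the 99th percentile of the top 3000 barcodes and, below it, by a test against the free-RNA profile of barcodes ranked 45000 to 90000 (at least 500 UMIs, at most 20000 barcodes tested, a limit reached in NEJ634, NEJ709 and NEJ723, false discovery rate 0.01). Cells over 20% mitochondrial UMIs were removed. So were the cells with the highest simulated-doublet scores, in a number set by an assumed rate of 0.8% per 1000 cells (3277 cells in NEJ634). Leiden clustering (python-igraph 0.11.9, resolution 1, 40 components of 2000 genes, 15 neighbors) left out the carboxylesterase and related lists. Of 63 clusters, 19 stayed unnamed. Clusters were named where the mean log2 fold of a marker list over the median of the other clusters reached 1.5, led by 1 and rested on 3 markers. The following 2 choices were made after seeing the data: the median in place of the mean, and the requirement that hepatocyte-lineage-like cells hold 2 times the markers of their library's free RNA, which left out 1076 cells. UMIs were summed per class and library and divided by the total (CPM), with exact 95% Poisson or Clopper-Pearson intervals, which cover counting error only. In ratios, 0 UMIs in a library counted as 3. Named genes were the 10 members, list examples of highest level or widest range, and the 5 genes most alike. Steps were tested on simulated data.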

Additional observations from a re-analysis of the deposited data

Results flagged for a closer look

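Signal in cells and barcodes that the levels above do not use was above the limit that a count of 0 allows in every library. The cells of cluster 24, left out because their hepatocyte markers were near the free-RNA level, held summed carboxylesterase levels of 275 CPM in NEJ638 (18 cells), 218 CPM in NEJ654 (229 cells) and 232 CPM in NEJ677 (787 cells). Cluster 62, 25 cells led by Ces3a and Ces3b and left out for the same reason, held 2300 CPM in NEJ654 (24 UMIs) and 2338 CPM in NEJ677 (48 UMIs); in NEJ677 Ces3a stood at 877 CPM and Ces3b at 974 CPM, from 18 and 20 UMIs in 13 cells. The genes were kept out of the clustering, and no test was made of this cluster.

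In barcodes ranked 45000 to 90000 by UMIs, which are mostly empty droplets, the summed level was 76.3 CPM in NEJ634, 70.2 CPM in NEJ687, 30.9 CPM in NEJ709, 22.2 CPM in NEJ723, 584 CPM in NEJ638, 509 CPM in NEJ654 and 510 CPM in NEJ677.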

How the results depend on the processing

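No paired analysis was possible because the labels give no groups and no test was run. Under 14 other settings, the summed level of NEJ634 and NEJ687 stayed below that of NEJ638, NEJ654 and NEJ677. The lowest value of the trio was 1584 CPM and the highest of the pair 400 CPM. The genes were chosen for that order in these same data, so its holding under other settings is no further support for it. Values that left the counting interval were as follows. With the 99th percentile rule alone, NEJ634 had 209 CPM. With at most 10% mitochondrial UMIs, NEJ654 had 2965 and NEJ677 3446 CPM. With doublets kept, NEJ634 had 203 CPM from 1747 cells, and at Leiden resolution 2 it had 200 CPM. With each library clustered on its own it had 164 CPM, from 52 cells in place of 4140. Cells chosen by at least 5% of UMIs from the 16 markers gave 400 and 371 CPM in NEJ634 and NEJ687 and 2964 and 3602 CPM in NEJ654 and NEJ677, and left 2 members with a 100-fold range, Ces1f and Ces3a. Without haemoglobin and mitochondrial UMIs in the total, the levels in NEJ634, NEJ638, NEJ654 and NEJ677 were 193, 3166, 3259 and 4252 CPM. The mean of per-cell CPM moved all 5 libraries, NEJ634 to 155, NEJ687 to 181, NEJ638 to 2815, NEJ654 to 2648 and NEJ677 to 4420. After subtraction of the free-RNA profile, NEJ634 had 195, NEJ638 3216, NEJ654 3348 and NEJ677 4241 CPM. Among settings chosen after seeing the data, dropping the free-RNA requirement gave 2366 CPM in NEJ654 and 1584 CPM in NEJ677, since it added the cells of cluster 24, naming against the mean gave 213 CPM in NEJ634, and leaving out cluster 44 gave 166 CPM there. The cause of the other shifts was not tested.

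The count of members with a 100-fold range was otherwise 3 or 4, also with each library left out in turn (chosen after seeing the data), Ces1d being the one lost, and the count above T/NK-like and B-like cells 3 to 6, with changes in which members those were. Among genes reaching 10 CPM, 1.59% had a 100-fold range. Levels in NEJ709 and NEJ723 rest on 8 cells each, and ratios for Ces1f and Ces3b on 1 UMI.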
